A study of Felis catus with 36 samples.

Results

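Skeletal muscle-restricted genes are described here as the genes whose messenger RNA was abundant in cat skeletal muscle (SKM) and scarce in the left ventricle (LV) of the heart. Levels are in CPM, the count of a gene per 1e6 counts summed over all gene rows of its library. A gene was eligible where its mean level over the 18 LV libraries was under 5 CPM, which held for 16765 of 26681 genes. Of these, the 100 with the highest mean level over the 18 SKM libraries were taken. The genes were thus chosen by their levels in both tissues, and the tissue difference is given as a description with no test.

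The study followed cats with a banded aorta, labelled as a model of HFpEF (heart failure in which the ejection fraction is preserved), beside sham-treated control cats. In each tissue there were 5 libraries of cats banded for 4 months, 5 of cats banded for 1 month, 5 of sham cats at 4 months and 3 of sham cats at 1 month, 36 libraries in all. Counts over all genes, in units of 1e6, lay between 21.5 and 34.9 a library in SKM and between 14.6 and 22.3 in LV. With counts assigned to no gene included, 56.3% to 76.3% fell on genes in SKM and 46.1% to 63.8% in LV. In SKM, library 1 of the 1-month sham group had 56.3% and library 1 of the 1-month banded group 59.1%. The other SKM libraries had 70.3% or more. Those with the low shares also had the lowest summed gene counts in SKM. The labels name no strain, sex, age at surgery, muscle or sequencing batch. They do not say that the libraries of a group came from separate animals, so p-values measure the spread between these libraries, which may be partly technical. Age, time after surgery and any batch that goes with the time point cannot be told apart.

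Skeletal muscle and heart muscle both contract through sarcomeres, but build them largely from different members of the same protein families. Skeletal fibres also use their own calcium release, nerve contact and energy supply proteins, and fast and slow fibres differ again among themselves. The files identify genes by Ensembl identifiers alone. Of the 26681 identifiers, 0 could be joined to a symbol, so the genes are named here by identifier, without a known role. For the same reason the tissue labels could not be checked against marker genes, and neither sequences nor fibre types are given.

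The 100 genes took up a steady share of muscle messenger RNA. Their counts summed to between 5.42% and 7.51% of all gene counts in the 18 SKM libraries, with a mean of 6.10%. By library the summed level was 59388, 61774, 62819, 62277 and 63029.7 CPM in 4-month banded muscle. It was 54924, 54177, 56851, 64028 and 75124 CPM in 1-month banded muscle. In sham muscle it was 57334, 55146, 60681, 62266 and 56544 CPM at 4 months and 54658, 67550.2 and 68746 CPM at 1 month. All 4 groups overlapped, and library 5 of the 1-month banded group was the highest of the 18. The groups averaged 61858 ± 1465 CPM in 4-month banded, 61021 ± 8794 CPM in 1-month banded, 58394 ± 2971 CPM in 4-month sham (SD, n = 5 each) and 63651 ± 7811 CPM in 1-month sham muscle (SD, n = 3).

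A few genes carried most of that sum. The 5 most abundant held 57.1% of it and the first 20 held 86.6%, while ranks 51 to 100 together held 4.15%. Only 11 genes averaged 1000 CPM or more in muscle, and 46 averaged 100 CPM or more. CPM is not divided by transcript length, so this order is one of reads and not of molecules. The last genes taken were ENSFCAG00000026758 and ENSFCAG00000042868, with mean muscle levels of 28.9 and 28.7 CPM, and the first left out by level were ENSFCAG00000014125 and ENSFCAG00000013642, with 28.4 and 28.3 CPM. Nearest under the LV limit were ENSFCAG00000001886 and ENSFCAG00000007813, with mean LV levels of 4.67 and 4.52 CPM, and just over it were ENSFCAG00000023812 and ENSFCAG00000006294, with 5.13 and 5.17 CPM.

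The most abundant gene was ENSFCAG00000001886. It had 9063, 10742, 9731, 9951 and 9602 CPM in 4-month banded and 8801, 9061, 9457, 12487 and 14339 CPM in 1-month banded libraries. In sham libraries it had 8364, 7610.4, 9181, 9862 and 7695 CPM at 4 months and 7986, 12973 and 12362 CPM at 1 month. Its groups overlapped, and the highest value was again that of library 5 of the 1-month banded group. The second, ENSFCAG00000031245, lay between 5477 and 8977 CPM in all 18 SKM libraries. ENSFCAG00000005527, the fourth, ranged more widely in 1-month muscle: 3959.8, 5140.0, 5941, 7303 and 9743 CPM in banded and 3812, 6803 and 9862 CPM in sham libraries. At 4 months it had 4420.4, 4451, 4874, 5443 and 5453 CPM in banded and 3995, 4847, 4459.8, 5811 and 3784 CPM in sham muscle. None of these 3 genes passed the test of time in either treatment.

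The others of the 5 most abundant genes were called higher at 4 months in banded muscle by edgeR, with the same sign in sham muscle. ENSFCAG00000025799 had 8447, 8801, 9116, 6612 and 8852 CPM in 4-month banded and 8218, 3559.8, 5757, 4704 and 2505 CPM in 1-month banded libraries. The sham libraries held 8014, 8057, 8282, 9233 and 8599 CPM at 4 months and 8369, 5465 and 4419.6 CPM at 1 month. In banded muscle 4 of the 5 libraries at 4 months lay above all those at 1 month, and the groups overlapped through 1-month library 1. Library 1 of each 1-month group had a low share of counts on genes, and whether this bears on its values was not tested. The log2 fold change of 4 months over 1 month was 0.95 ± 0.22 (SE) in banded muscle, with an edgeR quasi-likelihood adjusted p of 0.0026, and 0.55 ± 0.26 in sham muscle, with an adjusted p of 0.12. For ENSFCAG00000000828 it was 0.57 ± 0.21 in banded muscle, with an edgeR adjusted p of 0.038, and 0.57 ± 0.25 in sham muscle, with an adjusted p of 0.10. The banded call of ENSFCAG00000000828 held in 17 of 25 alternatives and in 12 of the 18 fits that left out a library. It was also lost under library totals, with an edgeR adjusted p of 0.078, and in a fit of the groups compared alone, with 0.10. Its banded log2 fold change was lowest, at 0.39, without 1-month banded library 1. The sham time effect of ENSFCAG00000000828 was called in 4 of 25 alternatives. Among them were DESeq2, with an adjusted p of 0.048, and the limma voom test with quality weights, with 0.0075. That of ENSFCAG00000025799 was called in 1 of 25, by the same voom test, with an adjusted p of 0.0056.

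**Figure D1:**
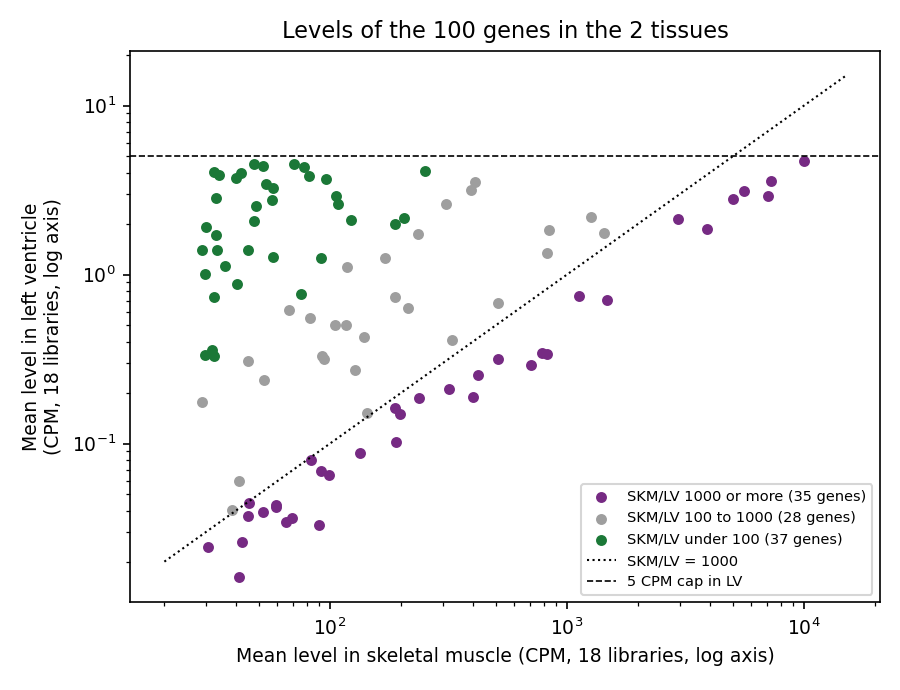
Mean level of each of the 100 genes in skeletal muscle (horizontal, CPM, log axis) and left ventricle (vertical, CPM, log axis), 18 libraries a tissue, coloured by the ratio of the 2 means. The dashed line is the limit of 5 CPM, the dotted line a ratio of 1000, and no gene has a ratio over 2732.

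None of the 100 genes passed the edgeR quasi-likelihood test of banding in skeletal muscle, at either time. All 100 were tested in SKM, where all 18 libraries were fitted together, and a gene was called at a Benjamini-Hochberg adjusted p under 0.05 over all 13480 genes tested. At 1 month 0 of the 100 were called in banded against sham muscle, beside 0% of all genes tested. At 4 months 0 of the 100 were called, beside 0% of all genes. An unadjusted p under 0.05 was reached by 12 genes at 1 month and 7 at 4 months, or 12% and 7%, beside 14.1% and 7.89% of all genes. The test of whether the banding effects at both times differ also called 0 of the 100, beside 0% of all genes, and 12% had an unadjusted p under 0.05, beside 12.6% of all genes.

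Other tests called a few. DESeq2 called 1 of the 100 at 1 month, beside 0.202% of all genes, and 0 at 4 months, beside 0.404%. The limma voom test with quality weights called 6 at 1 month, beside 10.8% of all genes, 0 at 4 months, beside 0%, and 1 for the difference of the effects, beside 0.453%. The gene that DESeq2 called, ENSFCAG00000045052, was also one of the voom calls and is named here after its values were seen. ENSFCAG00000045052 had 166, 180.1, 178, 139 and 147 CPM in 4-month banded and 181, 107, 182, 130.2 and 106 CPM in 1-month banded libraries. Sham values were 182, 161, 162, 154 and 181 CPM at 4 months and 207, 231 and 276 CPM at 1 month. At 1 month no banded library reached the lowest of the sham group, and at 4 months the groups overlapped. Its log2 fold change of banded over sham at 1 month was -0.89 ± 0.16 with an edgeR adjusted p of 0.25, and at 4 months -0.04 ± 0.14 with an adjusted p of 0.96. Over the alternatives the 1-month adjusted p ran between 0.0048 and 0.75.

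With time, 53 of the 100 genes changed in banded muscle, of which 43 were higher at 4 months than at 1 month and 10 lower. Over all 13480 genes tested, 42.6% were called, 19.5% higher and 23.2% lower. In sham muscle 27 changed, 21 higher and 6 lower at 4 months, beside 25.3% of all genes, 11% higher and 14.2% lower. Among the 3396 genes at least as abundant in muscle as the lowest of the 100, 48.8% were called in banded muscle, 40.3% higher and 8.48% lower, and 27.3% in sham muscle, 20% higher and 7.24% lower. The counts of the 100 genes lie near those shares. This set of abundant genes was chosen after the values were seen, and it holds the 100. In sham muscle, voom with quality weights called 51 of the 100, beside 46.7% of all genes, and edgeR called 17 without 1-month sham library 2, beside 15.9%.

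Since the choice used the mean over both times, a gene abundant at 1 time alone could enter through it and then had to differ between times. For 8 of the 100 genes the mean over the 4-month muscle libraries was under the 28.7 CPM of the lowest gene taken, and for 9 that over the 1-month libraries was. The first 8 gave 6 of the 10 lower calls in banded and 2 of the 6 in sham muscle. The 9 gave 7 of the 43 higher calls in banded and 3 of the 21 in sham muscle. Of the other 83 genes, 36 were called higher and 4 lower in banded muscle, and 18 higher and 4 lower in sham muscle. The 17 genes were tested with the others and stay in the counts and medians of time given for the 100. Their calls are no support for a difference between times.

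The median log2 fold change of the 100 genes was 0.42 in banded and 0.23 in sham muscle. It was -0.02 and -0.05 over all genes tested, and 0.27 and 0.15 over the abundant genes. Scaling by library totals alone moved the median of all genes to -0.19 in banded muscle. Under it 31 of the 100 were higher and 11 lower in banded muscle, and 27.7% of all calls were higher in place of 45.6%. In sham muscle the same scaling gave 20 higher and 8 lower, and 37.7% of all calls were higher in place of 43.7%. The groups did not overlap for 27 genes higher at 4 months in banded muscle, beside 11% of all genes, and for 3 lower, beside 13.7%. In sham muscle they did not overlap for 25 genes higher, beside 13.8%, and 4 lower, beside 16.8%. Shares of the abundant genes without overlap are not given for either treatment alone. Genes that entered the choice through their 4-month libraries were not left out of these counts. The counts without overlap are therefore descriptions and are not read as particular to the 100.

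**Figure D2:**
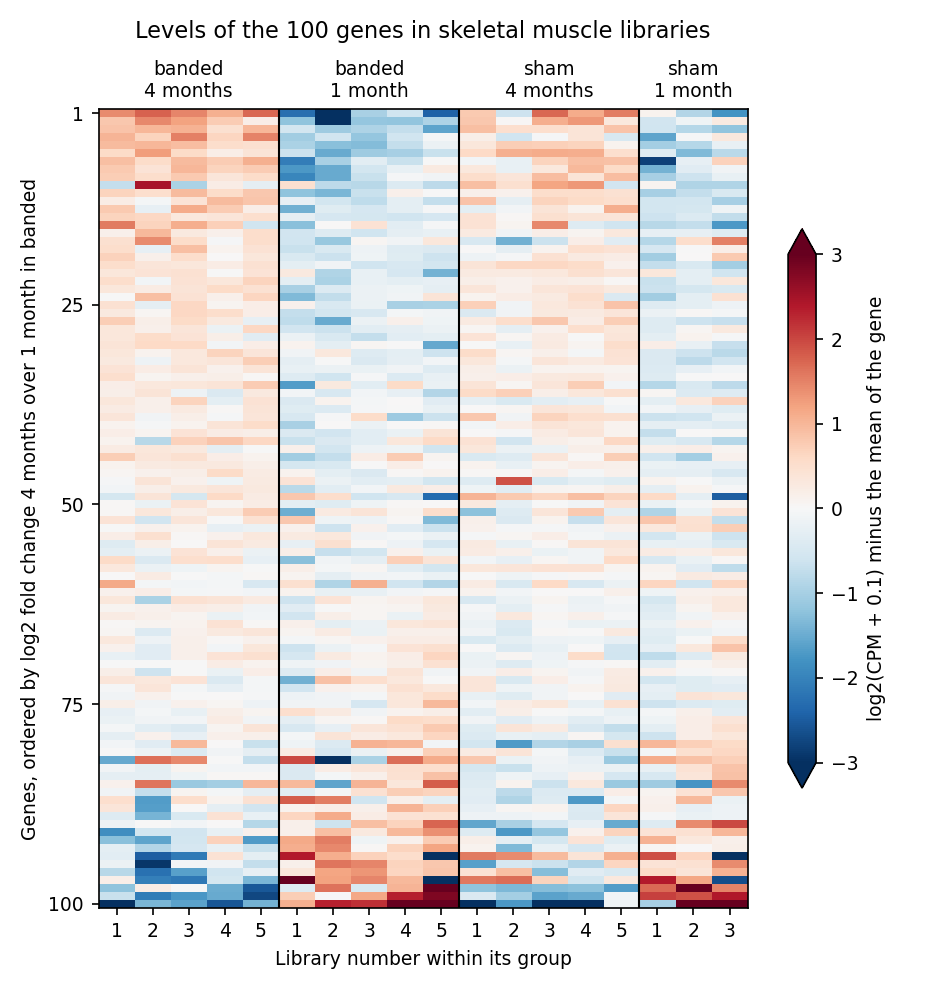
Level of each of the 100 genes (rows) in each of the 18 skeletal muscle libraries (columns, by group and library number), as log2(CPM + 0.1) minus the mean of the gene, with rows ordered by the banded log2 fold change of 4 months over 1 month. Rows near the top are redder in the 4-month columns and the few rows at the bottom redder in the 1-month columns; colours stop at 3 either way.

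Calls in banded and sham muscle were largely for the same direction. Both treatments called 22 genes, 18 higher in both, 3 lower in both and 1 in opposite directions. The shared genes were 41.5% of the banded calls and 81.5% of the sham calls, beside 43.6% and 73.5% over all genes. A further 31 genes were called in banded muscle alone, of which 27 had the same sign in sham muscle, and 5 were called in sham muscle alone. Shares of all genes with the same direction or sign are not given. The agreement in direction is therefore a description and is not read as particular to the 100. That the 2 treatments differed in their time effect was called for 0 of the 100. The gene with opposite calls was ENSFCAG00000045052, for which the log2 fold change of 4 months over 1 month was 0.37 ± 0.15 in banded muscle, with an edgeR adjusted p of 0.047, and -0.48 ± 0.17 in sham muscle, with an adjusted p of 0.043.

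**Figure D3:**
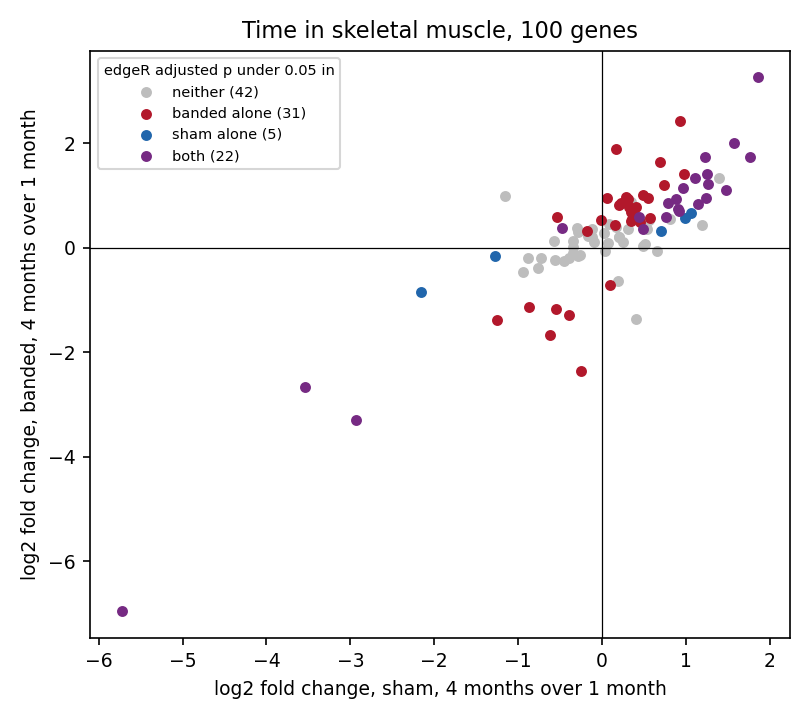
Log2 fold change of 4 months over 1 month in sham (horizontal) and banded (vertical) skeletal muscle for the 100 genes, coloured by which treatment passed an edgeR adjusted p under 0.05. Both called 22 genes, and 42 were called in neither.

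In both treatments, 10 genes were called higher at 4 months without overlap of the groups, beside 5.07% of all genes and 11.5% of the abundant genes. Those with the largest changes are given here. ENSFCAG00000031492 had 68.5, 76.2, 78.7, 52.8 and 75.9 CPM in 4-month banded and 25.7, 18, 20, 23 and 12.7 CPM in 1-month banded libraries. Among sham libraries the values were 70.8, 54, 53.6, 49.9 and 68.8 CPM at 4 months and 25, 20.8 and 16.6 CPM at 1 month. Every 4-month library lay above every 1-month library in both treatments. Its mean of 20.2 CPM over the 1-month muscle libraries was under the level of the lowest gene taken, so it entered through its 4-month libraries, where it averaged 64.9 CPM. Its calls are thus no support for a difference in time.

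The second of them was on average over that level at both times. ENSFCAG00000040779 had 114, 184, 116, 88.6 and 101 CPM in 4-month banded and 49.4, 27.1, 36.8, 38.5 and 48.1 CPM in 1-month banded libraries. In sham libraries it had 117, 162, 167, 165 and 109.6 CPM at 4 months and 59.5, 31 and 44 CPM at 1 month. Here too no 1-month library reached a 4-month one. On the log2 scale the fold change of 4 months over 1 month was 1.74 ± 0.22 in banded muscle and 1.76 ± 0.27 in sham muscle, with edgeR adjusted p of 4.1e-05 and 4.5e-04. Both calls held in all 25 alternatives run for them.

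A single gene, 1 of the 100, was called lower in both treatments without overlap, beside 6.57% of all genes and 2.77% of the abundant genes. ENSFCAG00000038619 had 13.7, 5.1, 6.51, 7.68 and 3.21 CPM in 4-month banded and 36.9, 21.6, 49.1, 111 and 155 CPM in 1-month banded libraries. The sham libraries held 16.4, 10.8, 7.14, 7.69 and 20.9 CPM at 4 months and 91, 82.6 and 117 CPM at 1 month. It averaged 9.9 CPM over the 4-month muscle libraries and 83.1 CPM over the 1-month ones, so it entered the 100 through its 1-month libraries. Its calls are thus no support for a difference in time.

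Another gene entered through a few 1-month libraries. ENSFCAG00000004609 had 0.112, 0.973, 0.822, 0.373 and 0.939 CPM in 4-month banded and 5.7, 13.8, 12.5, 132 and 257 CPM in 1-month banded libraries. Sham values were 0.249, 0.747, 0, 0.0334 and 2.46 CPM at 4 months and 1.3, 25.1 and 82.8 CPM at 1 month. Its mean muscle level of 29.8 CPM came mostly from 1-month libraries 4 and 5 of the banded group and library 3 of the sham group. Its sham groups overlapped, and it was at 0 counts in 4-month sham library 3. Over the 4-month muscle libraries it averaged 0.671 CPM, and over the 1-month ones 66.3 CPM.

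**Figure D4:**
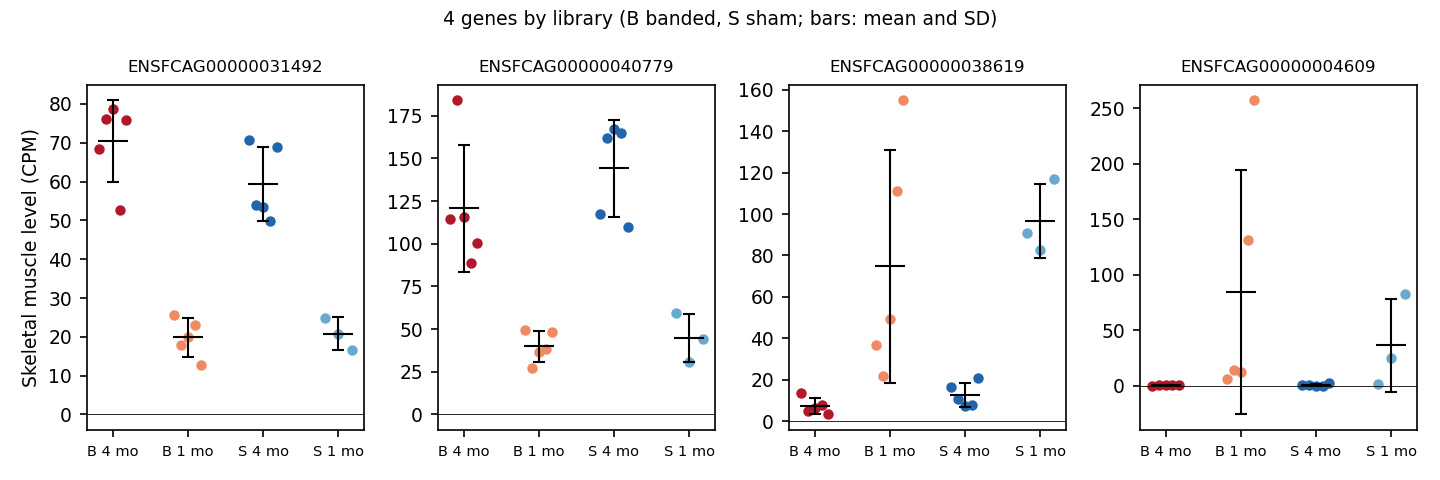
Skeletal muscle level (CPM) of 4 genes in each of the 18 libraries, by group (B banded, S sham, 4 and 1 months), with the mean and SD of each group. ENSFCAG00000031492 and ENSFCAG00000040779 are higher at 4 months and ENSFCAG00000038619 is lower, while ENSFCAG00000004609 reaches 257 CPM in a single 1-month banded library.

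Many of the 100 genes varied widely between libraries of the same group. The SD of log2(CPM + 0.1) within groups had a median of 0.40 over the 100 genes and 0.23 over the 3396 abundant genes. 6 of the 100 had an SD over 1, beside 1.88% of the abundant genes, and 17 had one under 0.25, beside 56.9%. Between the lowest and highest SKM library, 16 genes differed by more than 10-fold and 15 by less than 2-fold. These spreads are descriptions, and the difference between the sets was not tested.

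A wide spread was also seen in abundant genes, of which ENSFCAG00000010562 was chosen after its values were seen. ENSFCAG00000010562 had 295, 790.0, 671, 241 and 117 CPM in 4-month banded and 513, 2099.9, 489, 1373 and 9089.6 CPM in 1-month banded libraries. Among sham libraries the values were 294, 267, 278, 286 and 211 CPM at 4 months and 2206, 5463 and 1905 CPM at 1 month. Library 5 of the 1-month banded group was the highest of the 18, and both 4-month groups stayed under all sham libraries of 1 month. ENSFCAG00000034230 had 686, 153, 195, 1142 and 694 CPM in 4-month banded and 4433, 1822, 1376, 1233 and 59.3 CPM in 1-month banded libraries. In sham libraries it had 2511, 2269, 1639, 1122 and 1781 CPM at 4 months and 3244, 1329 and 53.1 CPM at 1 month. Each 1-month group thus held 1 library under 60 CPM, and the others of those groups were over 1000 CPM.

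The spread was partly shared. After subtraction of group means, the 4950 pairs of genes had a median Pearson r of 0.21 over the 18 SKM libraries, with 24.8% over 0.5 and 4.83% under -0.5. The points share the libraries and their depth, and no p is given. At an average r of 0.5, 34 genes formed the largest cluster, with a median r of 0.69, and it held 10 of the 20 most abundant genes. Their mean deviation was highest in library 5 of the 1-month banded group, at 0.58 on the log2 scale, and lowest in library 1 of the 1-month sham group, at -0.69. The latter library had the lowest share of counts on genes in SKM.

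In the left ventricle the 100 genes were low, as their choice required. Their summed level lay between 86.0 and 218 CPM over the 18 LV libraries, with a mean of 143 CPM. For 98 of the 100 the lowest SKM library was above the highest LV library, and the exceptions were ENSFCAG00000005446 and ENSFCAG00000004609. A low summed level in bulk tissue cannot tell fewer expressing cells from less RNA in each. The ratio of mean muscle to mean LV level ran between 7.95 and 2732, with a median of 244. The limit of 5 CPM in LV by itself forces a high ratio on the most abundant genes.

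The genes were next split by this ratio. It was 1000 or more for 35 genes, with a median of 1617, and under 100 for 37, with a median of 24. By library the 35 genes summed to 21.5, 69.1, 25.7, 36.8 and 15.7 CPM in 4-month banded LV and 11.2, 22.8, 37.1, 17.3 and 41.8 CPM in 1-month banded LV. In sham LV they summed to 12.2, 17.8, 31.2, 31.3 and 11.2 CPM at 4 months and 23.4, 19.5 and 18.5 CPM at 1 month. All groups overlapped, and library 2 of the 4-month banded group was the highest of the 18, at 69.1 CPM (exact 95% Poisson interval 65.5 to 72.9, counting error only). The next was library 5 of the 1-month banded group.

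Library 2 of the 4-month banded group led for most of these genes. Of the 35 genes, 23 had their highest LV value there, as had 32 of all 100. The share of all genes with their highest LV value there is not given, and the ratio used these same LV values. These counts are therefore descriptions alone. Their sum there was 0.138% of their summed mean muscle level, and between 0.0223% and 0.0835% in the other LV libraries. ENSFCAG00000025799, for example, had 1.98, 10.5, 2.5, 1.98 and 1.4 CPM in 4-month banded LV and 1.08, 3.25, 5.69, 1.87 and 3.25 CPM in 1-month banded LV. In sham LV it had 1.28, 1.65, 2.08, 4.66 and 1.13 CPM at 4 months and 2.78, 2.84 and 2.6 CPM at 1 month. The value of 4-month banded library 2 was the highest of the 18.

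The 37 genes with a ratio under 100 had other libraries at the top. They summed to 87.9, 109, 60.2, 85.1 and 97.1 CPM in 4-month banded LV and 91.9, 118, 99.4, 124 and 90.2 CPM in 1-month banded LV. In sham LV they summed to 75.3, 84.7, 80.9, 66.8 and 58 CPM at 4 months and 86.2, 114 and 83.8 CPM at 1 month. No more than 7 of the 37 had their highest value in any 1 library, which was library 4 of the 1-month banded group. Of the 35 high-ratio genes 11 passed the low-count filter in LV and 0 were called with time in either treatment, whereas 36 of the 37 passed it and 11 were called in banded and 6 in sham LV, beside 25.4% and 18.3% of all genes. The high-ratio genes have low LV counts, so these counts are not compared.

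**Figure D5:**
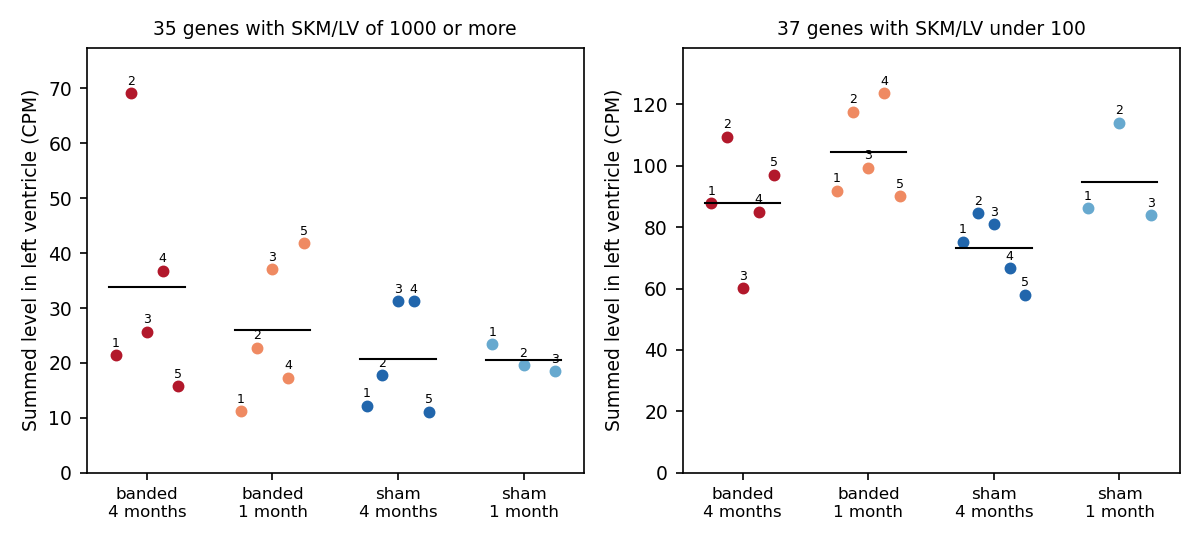
Summed level in each left ventricle library (CPM, points numbered by library within the group, bars at group means) of the 35 genes with a muscle to ventricle ratio of 1000 or more (left) and the 37 with a ratio under 100 (right). Library 2 of the 4-month banded group stands at 69.1 CPM on the left, and on the right it lies among the others.

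Of the 100 genes 67 passed the low-count filter in LV, a filter that genes can pass through 1 group alone. Banding called 0 of the 67 at 1 month and 0 at 4 months by edgeR, beside 0% of all 13976 genes tested at each time. An unadjusted p under 0.05 was reached by 5 and 9 of them, or 7.46% and 13.4%, beside 8.70% and 10.2% of all genes. DESeq2, which kept 62 of the 100 genes at 1 month and 88 at 4 months, called 1 at 1 month, beside 0.701% of all genes, and 3 at 4 months, beside 0.859%. Voom with quality weights called 5 of the 67 at 1 month, beside 17.4% of all genes, and 0 at 4 months, beside 0.00716%. The difference of the banding effects called 0 by edgeR, beside 0% of all genes, and 0 by voom, beside 3.62%, and 2.99% of the 67 had an unadjusted edgeR p under 0.05, beside 6.33% of all genes.

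Those 4 DESeq2 calls were all higher in banded LV, and are named after their values were seen. At 4 months ENSFCAG00000042507 had 4.17, 6.44, 1.38, 5.17 and 8.03 CPM in banded and 2.26, 1.24, 2.13, 0.986 and 0.461 CPM in sham LV, with a log2 fold change of 1.81 ± 0.41 and an edgeR adjusted p of 0.17. ENSFCAG00000003805 had 4.58, 8.36, 7.38, 6.51 and 3.1 CPM in banded and 1.87, 2.93, 3.44, 0.941 and 1.07 CPM in sham LV, with an edgeR adjusted p of 0.21. ENSFCAG00000040779 had 0.615, 1.45, 0.198, 2.5 and 0.145 CPM in banded and 0, 0.137, 0.0905, 0.134 and 0.0512 CPM in sham LV, with an edgeR adjusted p of 0.17. It passed the low-count filter through its 4-month banded libraries alone, so this p is no support for a difference. Of these 3 genes, ENSFCAG00000040779 alone had no overlap between its groups, and its sham values rest on 9 counts in all. Its lowest banded value, 0.145 CPM, and its highest sham value, 0.137 CPM, were each 3 counts, so library depth alone set them apart. At 1 month ENSFCAG00000036406 had 10.7, 0.426, 0.457, 3.02 and 0.642 CPM in banded and 0, 0.105 and 0.111 CPM in sham LV, with an edgeR adjusted p of 0.33. The groups did not overlap, the banded values were led by library 1, and the sham libraries held 4 counts in all.

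Time called 16 of the 67 genes in banded LV, 9 higher and 7 lower at 4 months, or 23.9%. Of all genes 25.4% were called, 12.8% higher and 12.6% lower. It called 7 in sham LV, 3 higher and 4 lower, or 10.4%, beside 18.3% of all genes, 8.84% higher and 9.42% lower. Both treatments called 6 of them, 2 higher and 4 lower. The sham count was 4 of 72 without 1-month sham library 3 and 2 of 57 in a fit of the groups compared alone, each beside 11.3% of all genes. It was 13 of 83 by DESeq2, beside 20.8%, and 13 of 67 by voom with quality weights, beside 42.9%. Scaling by library totals gave 8 higher and 12 lower in banded LV, and moved the median of all genes there to -0.24. Under it 20.5% of all calls in banded LV were higher in place of 50.4%. Of the 16 banded LV calls, 5 were called in the same direction in banded SKM, 4 in the opposite direction and 7 not at all. Of all genes tested in SKM, 42.6% were called with time in banded muscle. Shares of all genes called in both treatments of LV, or in both tissues, are not given. These overlaps are therefore descriptions alone.

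Some of the LV calls were for a higher level at 4 months in both treatments. In LV ENSFCAG00000026758 had 2.6, 5.66, 1.65, 3.37 and 2.18 CPM in 4-month banded and 0.228, 0.0532, 0.102, 0.725 and 0.0916 CPM in 1-month banded libraries. The sham libraries held 0.344, 0.458, 5.34, 0.851 and 0.819 CPM at 4 months and 0.16, 0.105 and 0.387 CPM at 1 month. In banded LV every 4-month library lay above every 1-month one. The log2 fold change of 4 months over 1 month was 3.95 ± 0.79 in banded LV and 2.89 ± 0.96 in sham LV, with edgeR adjusted p of 0.0015 and 0.044. Its 1-month LV libraries held 21 counts in banded and 12 in sham, so it passed the low-count filter through its 4-month libraries. These p-values are thus no support for a difference in time. The banded call held in all 25 alternatives and the sham call in 15 of 25. The sham log2 fold change was lowest, at 1.60, without 4-month sham library 3, and that call was also lost without any 1 of the 3 sham libraries of 1 month, by voom and in a fit of the groups compared alone.

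Another gene was also called higher at 4 months in both. In LV ENSFCAG00000023377 had 0.274, 1.71, 1.25, 2.27 and 1.65 CPM in 4-month banded and 0, 0.213, 0, 0.0605 and 0.137 CPM in 1-month banded libraries. Sham values were 0.0984, 0.183, 4.48, 0.627 and 0.307 CPM at 4 months and 0, 0 and 0.0553 CPM at 1 month. The sham 1-month libraries held 1 count in all, so no fold is given for sham. The edgeR adjusted p was 0.0064 in banded LV, with a log2 fold change of 4.25 ± 1.04, and 0.019 in sham LV, a call that was lost without 4-month sham library 3, or without 1-month sham library 1 or 2. The banded 1-month libraries held 8 counts in all, so the gene passed the low-count filter through its 4-month libraries alone. Its p-values are thus no support for a difference in time.

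Other genes went the other way. In LV ENSFCAG00000015101 had 0.137, 0.882, 0.132, 0.233 and 1.02 CPM in 4-month banded and 1.65, 8.94, 2.64, 2.18 and 3.76 CPM in 1-month banded libraries. Among sham libraries the values were 1.38, 1.05, 1.22, 0.851 and 0.563 CPM at 4 months and 1.44, 1.79 and 1.38 CPM at 1 month. In banded LV its log2 fold change of 4 months over 1 month was -2.68 ± 0.54, with an edgeR adjusted p of 0.0015, and the groups did not overlap. In sham LV it was -0.48 ± 0.57, with an adjusted p of 0.61. In sham SKM the same gene was higher at 4 months, with a log2 fold change of 0.70 ± 0.16 and an edgeR adjusted p of 0.0063. In banded SKM its log2 fold change was 0.33 ± 0.14 and was not called, with an edgeR adjusted p of 0.067.

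In LV ENSFCAG00000009993 had 1.91, 1.56, 0.922, 1.74 and 1.02 CPM in 4-month banded and 4.39, 7.98, 4.22, 3.32 and 2.98 CPM in 1-month banded libraries. In sham libraries it had 0.492, 0.87, 0.0452, 1.61 and 0.973 CPM at 4 months and 5.87, 5.57 and 5.47 CPM at 1 month. Its log2 fold change was -1.44 ± 0.46 in banded LV and -2.67 ± 0.52 in sham LV, with edgeR adjusted p of 0.03 and 0.0019. No 4-month library reached a 1-month one in either treatment. ENSFCAG00000015010 stayed under 2 CPM in every LV library, with a log2 fold change of -2.28 ± 0.59 in banded LV and -2.60 ± 0.72 in sham LV and edgeR adjusted p of 0.009 and 0.017. Its sham call held in 22 of 24 alternatives and was lost without 1-month sham library 3. The 4-month LV libraries of ENSFCAG00000015010 held 15 counts in banded and 8 in sham, so it passed the low-count filter through its 1-month libraries. Its p-values are thus no support for a difference in time.

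In LV, unlike in SKM, ENSFCAG00000004609 was higher at 4 months in banded cats. In LV ENSFCAG00000004609 had 2.67, 6.95, 0.725, 3.26 and 9 CPM in 4-month banded and 0.342, 0.372, 0.0508, 1.39 and 0.0458 CPM in 1-month banded libraries. The sham libraries held 0.59, 0.412, 6.24, 1.7 and 0.358 CPM at 4 months and 0.107, 0.105 and 0.277 CPM at 1 month. The log2 fold change of 4 months over 1 month in banded LV was 3.66 ± 0.90, with an edgeR adjusted p of 0.0068. In sham LV it was 3.57 ± 1.22 and was not called, with an adjusted p of 0.0503. The 1-month LV libraries of ENSFCAG00000004609 held 38 counts in banded and 9 in sham, so it passed the low-count filter through its 4-month libraries. Its LV p-values are thus no support for a difference in time. In 4-month banded cats its SKM libraries ran between 0.112 and 0.973 CPM and its LV libraries between 0.725 and 9 CPM. ENSFCAG00000034230 had its highest LV value, 9.56 CPM, in library 1 of the 1-month sham group, and the other libraries of that group had 0.683 and 1.27 CPM.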

How the data were processed

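Polyadenylated RNA of 18 LV and 18 SKM samples was sequenced from stranded libraries, per the labels' protocols. The deposited files hold whole-number counts per gene, which the authors made with HISAT2 2.1.0 and HTSeq 0.11.2, per the submitters' processing notes, which also name DESeq2 1.22.2; genome build, annotation and strand setting are not given in the sources used here. The 5 summary lines of each file were left out. No pair among the 66 within-group pairs of libraries agreed within sampling noise (lowest chi-square per degree of freedom 36.3).

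Each tissue was fitted with edgeR 4.0.16 in R 4.3.3 (TMM factors, filterByExpr, quasi-likelihood F test, 4 groups of 18 libraries, no covariate), with Benjamini-Hochberg adjustment over all genes tested. SE is the absolute log2 fold change divided by the square root of F. Alternatives were DESeq2 1.42.0, voom with quality weights (limma 3.58.1), other scalings, no low-count filter, a replicate block, only the groups compared, and leaving out each library. The fitting script was tested on simulated counts. Identifiers named in the text are the 5 most abundant genes, genes called with time in both treatments without overlap or in LV (up to 2 a direction), LV traces, genes at the limits of the choice, and genes behind small counts. The genes, lists and rules were chosen with earlier results of these data known.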

Additional observations from a re-analysis of the deposited data

Results flagged for a closer look

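Among 84 groups of 5 libraries, those of the identifiers whose levels are given by library and of the summed levels, 15 had a highest or lowest library set apart from the others by a gap above Dixon's critical value. Chance flags about 1 group in 20 where values are normally distributed and groups independent. Some of these identifiers were chosen for a high single LV library or a wide spread, and all share the same libraries. The 15 are therefore not compared with that rate. No explanation was tested for any of them.

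In SKM, ENSFCAG00000040779 reached 184 CPM in library 2 of the 4-month banded group. ENSFCAG00000025799 was at 6612 CPM in library 4 of that group, its lowest there. ENSFCAG00000000828 was at 2514 CPM in library 1 of the 1-month banded group, its lowest there. That library had a low share of counts on genes. ENSFCAG00000010562 reached 9089.6 CPM in library 5 of the 1-month banded group.

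In LV, 5 high values were in the 1-month banded group: ENSFCAG00000036406 at 10.7 CPM in library 1, ENSFCAG00000015101 at 8.94 CPM and ENSFCAG00000009993 at 7.98 CPM in library 2, and ENSFCAG00000004609 at 1.39 CPM and ENSFCAG00000026758 at 0.725 CPM in library 4. In that group ENSFCAG00000040779 had a lowest value of 0 CPM. ENSFCAG00000025799 reached 10.5 CPM in library 2 of the 4-month banded group and 4.66 CPM in library 4 of the 4-month sham group. The other 3 were all in library 3 of the 4-month sham group: ENSFCAG00000004609 at 6.24 CPM, ENSFCAG00000026758 at 5.34 CPM and ENSFCAG00000023377 at 4.48 CPM.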

How the results depend on the processing

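Of 290 recomputed counts, 278 stayed within 1.5 times the reported one or stayed at 0. They include the banding counts of 0 and the numbers of genes kept by the choice. The 278 is thus no measure of how stable the time counts were. The counts that moved further were as follows, and the cause was not tested. DESeq2 called 1 gene for banding in SKM at 1 month, 1 in LV at 1 month, 3 in LV at 4 months and 13 for time in sham LV. Voom with quality weights called 6 for banding in SKM at 1 month, 1 for the SKM difference of effects, 5 for banding in LV at 1 month, 51 for time in sham SKM and 13 in sham LV. A fit of only the groups compared called 2 for time in sham LV. Leaving out each library gave 43 to 56 calls for time in banded SKM, 17 to 34 in sham SKM (17 without 1-month sham library 2), 12 to 19 in banded LV and 4 to 10 in sham LV (4 without 1-month sham library 3), and 0 for every banding contrast. Shares of all genes are given above for the fits named in brackets and not for the other fits without a library. The choice kept 98 to 100 of the 100 genes when a library was left out, 69 with a limit of 2 CPM, 71 with 10 CPM, 88 with TMM factors and 98 with group means. Uncalled time effects changed sign for ENSFCAG00000001886 in banded SKM (voom -0.0556, library totals -0.14, only the groups compared -0.00898, and -0.11 to 0.19 when a library was left out), ENSFCAG00000031245 in sham SKM (-0.37 to 0.0931) and ENSFCAG00000005527 in banded SKM (-0.41 to 0.0317). Libraries with the same replicate number were compared between the groups of a tissue. There 8 of 24 such pairs in SKM and 6 of 24 in LV correlated over 0.1. In SKM 3 and in LV 4 of 18 libraries correlated best with their own number. Whether LV and SKM libraries of the same number came from the same animal was not examined, so pairing is not excluded. With the replicate number as a block, time called 55 genes in banded SKM, 26 in sham SKM, 13 in banded LV and 5 in sham LV, and banding called 0. Over all genes time then called 5708, 2968, 3218 and 2076, of 13480 tested in SKM and 13976 in LV. Under it the sham LV calls of ENSFCAG00000026758 (edgeR adjusted p 0.074) and ENSFCAG00000015010 (0.053) were lost. Counting the 83 genes at the level of the lowest gene taken at both times, chosen after seeing the data, gave 40 calls for time in banded SKM and 22 in sham SKM. Of all genes 42.6% and 25.3% were called. Low LV counts limit the precision of LV values under about 0.157 CPM, the level of 3 counts at mean LV depth.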
